A study of Rattus norvegicus with 6 samples.

Results

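The 10 integrated stress response genes followed in transplanted rat hearts were *Atf4*, *Atf5*, *Ddit3*, *Ddit4*, *Trib3*, *Chac1*, *Asns*, *Sesn2*, *Fgf21* and *Gdf15*. They were taken by gene name from the 22250 genes of the deposited RNA-Seq table, and all 10 were among the 13784 genes that passed the filter on low counts. The libraries came from left ventricular myocardium of 3 young donor hearts (animals 3, 13 and 15, from donors of 10 weeks) and 3 aged donor hearts (animals 3, 4 and 7, from donors of 1 year), taken on postoperative day 1. All donors were Sprague-Dawley rats of the WT genotype, and per the study's methods they were male. Every heart had been kept cold in University of Wisconsin solution and then grafted heterotopically into a young rat, so neither group is an untouched heart, and a heterotopic graft does not carry the recipient's circulation. Animals were numbered separately in each group, so the number 3 names a heart in both.

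The integrated stress response is a shared reaction to amino acid shortage, heme shortage, viral RNA, misfolded protein in the endoplasmic reticulum (ER) and mitochondrial damage. A set of kinases phosphorylates the translation factor eIF2, which slows protein synthesis in general while the mRNA of ATF4 is translated more. ATF4 then drives genes for amino acid supply, and, with its partner CHOP (the product of *Ddit3*), genes that can limit growth or promote cell death. RNA levels do not show eIF2 phosphorylation or the amount of ATF4 protein.

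ATF4 is known to bind composite C/EBP-ATF elements (CARE). The letters TGATGNAA, the core of such an element, were searched on both strands in the RefSeq promoter windows of build GRCr8, which run from 250 bases before to 50 bases after each annotated start. All 10 genes had a window, 11 windows in all since *Gdf15* has 2, and the core was found in 3 genes, *Trib3*, *Chac1* and *Fgf21*. Of all 33469 windows, 3.98% held it. The upstream 250 bases of these 3 genes are shown because 2 of them were among the genes with the largest fold changes and the other stayed at the lowest read counts. Capitals mark the core as it reads on the gene's strand, which in each case is the reverse complement of the search letters. It begins 167 bases before the start in *Chac1* (chr3:126795881-126796130, plus strand), 21 bases before it in *Trib3* (chr3:161275534-161275783, minus strand) and 143 bases before it in *Fgf21* (chr1:105221377-105221626, minus strand).
Chac1: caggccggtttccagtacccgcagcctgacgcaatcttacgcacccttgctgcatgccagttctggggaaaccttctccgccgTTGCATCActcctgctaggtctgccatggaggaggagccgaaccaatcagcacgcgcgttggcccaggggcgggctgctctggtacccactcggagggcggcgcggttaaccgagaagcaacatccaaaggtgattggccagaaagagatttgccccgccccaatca
Trib3: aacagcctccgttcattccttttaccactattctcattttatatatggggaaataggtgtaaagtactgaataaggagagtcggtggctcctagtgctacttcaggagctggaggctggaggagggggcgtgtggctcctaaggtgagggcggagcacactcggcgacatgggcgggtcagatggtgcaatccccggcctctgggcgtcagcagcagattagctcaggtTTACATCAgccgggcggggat
Fgf21: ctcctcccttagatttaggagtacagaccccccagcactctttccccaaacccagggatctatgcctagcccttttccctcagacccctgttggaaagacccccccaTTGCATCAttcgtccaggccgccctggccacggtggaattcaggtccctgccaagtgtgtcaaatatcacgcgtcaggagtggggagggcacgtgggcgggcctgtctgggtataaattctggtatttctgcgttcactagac
A match of letters is not evidence of binding. The palindromic cAMP response element TGACGTCA, present in 1.83% of all windows, was found in 0 of the 11 windows.

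Each heart had between 21457509 and 24560869 reads on genes. Libraries were brought to one scale with TMM factors and given as CPM, a unit in which the scaled library total is the same in every heart. The age groups were set against each other with the quasi-likelihood test of edgeR. "Past the limits" means an unadjusted p-value under 0.05 together with a fold change over 1.5 or under 0.67, the study's own limits, and "rose" and "fell" are used only of genes past them. Young animal 15 stood apart from the other young hearts. On the first principal component (77.1% of the variance), its score was 10.4, against -113.7 and -120.7 in young animals 3 and 13 and 49.9 to 116.1 in the aged hearts, so the log2 fold changes of the 10 genes are also given without young animal 15. Cell type markers and mitochondrial reads also differed between the groups. Reads from the mitochondrial genome were 11.9 to 21.7% of those in young and 6.57 to 10.3% of those in aged hearts. The summed level of 10 cardiomyocyte markers ran from 12240 to 103300 CPM in young and from 582 to 7091 CPM in aged donor hearts, and was lowest in aged animal 3; no marker of any list was at 0 in every heart. Neutrophil markers, all 10 of them read in at least 1 heart though *Mpo* at no more than 0.121 CPM, ran from 17.4 to 153 CPM in young and from 383 to 1391 CPM in aged hearts, and the 10 macrophage markers from 341 to 2439 and from 3835 to 7424 CPM. Young animal 15 had the lowest cardiomyocyte sum (12240 CPM) and the highest neutrophil (153 CPM) and macrophage (2439 CPM) sums of the young group. The 7 fibroblast markers summed to 6367 to 8181 CPM in young and 2342 to 4488 CPM in aged hearts, the 7 endothelial markers to 1187 to 1744 and 950 to 1442 CPM, the 8 T cell markers to 29.9 to 86.7 and 109 to 159 CPM, and the 5 red blood cell markers to 729 to 5781 and 246 to 3097 CPM. The markers of a list did not all move together. Of 7 T cell markers tested, 2 rose and 5 were not past the limits, with log2 fold changes of -0.37 for *Cd3g* and 0.53 for *Cd3e*. The highest of that list in aged hearts was *Cd8a*, at 63.8 to 99.0 CPM, against 0.890 to 55.8 CPM in young hearts. Of 7 fibroblast markers, *Col1a1* and *Col3a1* fell and 5 were not past the limits, *Pdgfra* among them at 0.81. The part of any of these markers or of the mitochondrial reads in the results below was not tested. In such bulk tissue, fewer cells of a type and less RNA per cell cannot be told apart.

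Of the 10 genes, 6 rose in aged donor hearts, *Trib3*, *Gdf15*, *Chac1*, *Asns*, *Sesn2* and *Atf4*, and 1, *Ddit4*, fell. Over all genes tested, 13.2% were past the limits and higher and 19.0% past them and lower. The other 3, *Atf5*, *Ddit3* and *Fgf21*, were not past the limits. The median log2 fold change was 1.07 over the 10 genes and 0.016 over all genes tested. The 3 aged hearts all lay above the 3 young hearts in 6 of the 10 genes, against 21.0% of all genes, and all below them in 1, against 20.6% of all genes. In edgeR, the unadjusted p was under 0.05 in 7 of the 10 genes and the Benjamini-Hochberg adjusted p in 0, and the unadjusted p was under 0.05 in 34.3% of all genes. The adjusted p was under 0.05 in 7 of the 10 by DESeq2, against 23.4% of the genes to which it gave one, and in 8 by limma-voom, against 61.1% of all genes. The edgeR adjusted p was 0.0916, the smallest of the table, in 6 of the 10 and 0.132 in *Chac1*, and 18.8% of all genes were under 0.1. Without young animal 15, the same edgeR fit again put 6 of the 10 past the limits and higher and 1 past them and lower, but the shares of all genes were then 26.9% and 24.2%. In that fit the adjusted p was under 0.05 in 7 of the 10 and in 48.3% of all genes.

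**Figure D1:**
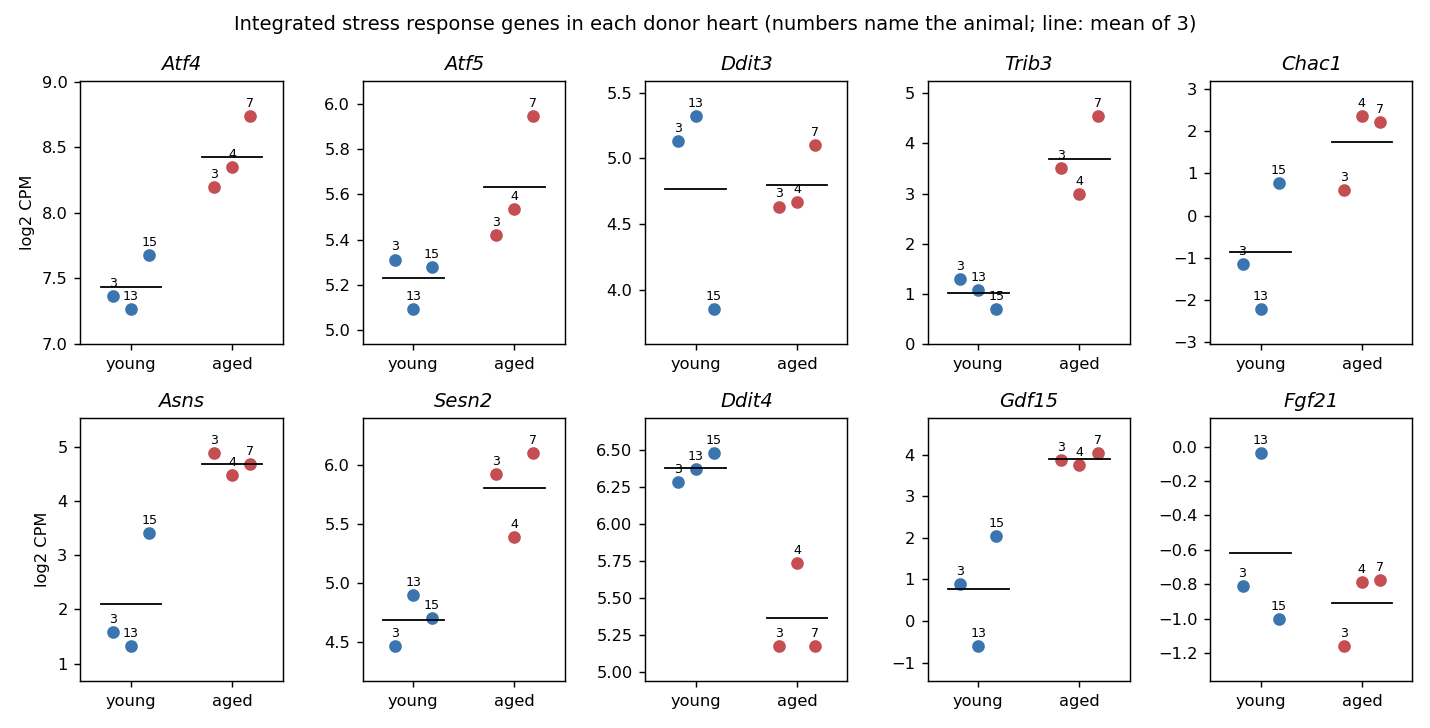
Level of each of the 10 genes on the log2 CPM scale (vertical axis, a different range in each panel) in the 3 young (blue) and 3 aged (red) donor hearts, numbered by animal, with a line at each group's mean. The aged hearts lie above the young hearts in 6 panels and below them in *Ddit4*, and young animal 15 lies apart from young animals 3 and 13 in *Asns*, *Chac1* and *Ddit3*.

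*Atf4* (ENSRNOG00000017801), the transcription factor at the centre of the response, lies on the plus strand of chromosome 7 (Rnor_6.0), between bases 121480723 and 121482772. The young hearts (animals 3, 13 and 15, in that order here and below) gave 2720, 2411 and 4962 reads and the aged hearts (animals 3, 4 and 7) 8935, 8589 and 11156 reads. Scaled, these were 165, 153 and 205 CPM in young and 293, 326 and 427 CPM in aged hearts. Every aged heart was above every young heart, with young animal 15 the highest of its group. The mean rose from 174 ± 27.2 to 349 ± 70.0 CPM (SD over 3 hearts each). On the log2 scale this was a change of 1.00 (standard error 0.248, 95% interval 0.40 to 1.6, unadjusted p = 0.00602 in edgeR), and it was 1.17 without young animal 15. For this gene, as for every gene in which the groups did not overlap, the two-sided exact permutation test over hearts gave p = 0.1, the smallest that 3 hearts against 3 allow.

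*Atf5* (ENSRNOG00000020060, chr1:100808241-100810522, minus strand), a related factor whose mRNA is also under translational control by eIF2, was at 39.6, 34.0 and 38.8 CPM in young and at 42.8, 46.3 and 61.6 CPM in aged hearts. The groups did not overlap, but aged animal 3 lay only just above young animal 3. The log2 fold change was 0.42 (standard error 0.195, 95% interval -0.047 to 0.89, unadjusted p = 0.0706 in edgeR). It was 0.49 without young animal 15, and ran from 0.26 without aged animal 7 to 0.53 without aged animal 3, the only such fit in which its unadjusted p was under 0.05.

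*Ddit3* (ENSRNOG00000006789, chr7:70580198-70585084, plus strand), which encodes CHOP, behaved unlike *Atf4*. It was at 35.0, 39.9 and 14.3 CPM in young animals 3, 13 and 15 and at 24.7, 25.3 and 34.2 CPM in aged animals 3, 4 and 7. Young animal 15 was the lowest of the 6 hearts, and the aged hearts lay between it and the other young hearts. The log2 fold change was -0.082 (standard error 0.392, 95% interval -1.03 to 0.86, unadjusted p = 0.841 in edgeR), an interval that holds both a fall and a rise of more than 1.5-fold. Its sign is not determined: it was -0.38 without young animal 15 and 0.19 without young animal 13. It was 0.46 under scaling by library totals alone, which moved the median of all genes to 0.46 as well. The last 72 bases of *Ddit3* in the table overlap the end of *Mars1* on the other strand, a gene past the limits and higher (log2 fold change 0.81), and since the use of strand in counting is not given in the sources used here, reads in the overlap cannot be assigned with certainty.

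*Trib3* (ENSRNOG00000007319, chr3:147813473-147819571, minus strand) encodes a pseudokinase that binds ATF4 and dampens its activity. Its counts were 39, 32 and 37 reads in young and 344, 207 and 609 reads in aged hearts, or 2.36, 2.04 and 1.53 CPM against 11.3, 7.85 and 23.3 CPM. The young hearts were close together, young animal 15 included, and every aged heart was above every young heart. The rise was 7.18-fold (log2 fold change 2.84, standard error 0.480, 95% interval 1.69 to 4.0, unadjusted p = 8.21e-04 in edgeR). Its log2 fold change was 2.73 without young animal 15 and 2.29 without aged animal 7, the heart with the highest level. With all 6 hearts in edgeR this was the largest of the 10 log2 fold changes, but *Chac1*, *Gdf15* and *Asns* were above it without young animal 15 and by limma-voom (3.77, 3.67 and 3.17, against 2.73 for *Trib3*).

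*Chac1* (ENSRNOG00000014387, chr3:111160205-111163425, plus strand) encodes an enzyme that breaks down glutathione. The young hearts held 6, 2 and 39 reads of it and the aged hearts 44, 134 and 120 reads. At 1.61 CPM, young animal 15 was above aged animal 3 (1.45 CPM), so the groups overlapped, whereas young animals 3 and 13 were at 0.363 and 0.127 CPM, the latter under the 3 reads taken as a signal. The fitted rise was 5.06-fold (log2 fold change 2.34, standard error 0.915, 95% interval 0.13 to 4.55, unadjusted p = 0.0409 in edgeR, exact permutation p = 0.2). This was the least firm of the 6 rises. It was 3.91 on the log2 scale without young animal 15, and the unadjusted p was over 0.05 in 4 of the 6 fits that each left out 1 heart, those without young animal 3 (log2 fold change 2.04), young animal 13 (1.88), aged animal 4 (2.06) and aged animal 7 (2.17).

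*Asns* (ENSRNOG00000007546, chr4:33743364-33761163, minus strand), asparagine synthetase, was at 2.90, 2.42 and 10.6 CPM in young and at 29.8, 22.4 and 25.9 CPM in aged hearts. Young animal 15 lay between the other young hearts and the aged hearts, and the aged hearts were close together. The rise was 4.87-fold (log2 fold change 2.28, standard error 0.599, 95% interval 0.84 to 3.73, unadjusted p = 0.00786 in edgeR), and the log2 fold change was 3.33 without young animal 15.

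Both *Sesn2* and *Ddit4* encode inhibitors of the growth kinase complex mTORC1, and they changed in opposite directions. *Sesn2* (ENSRNOG00000042785, chr5:150684133-150704117, minus strand), sestrin 2, was at 22, 29.8 and 25.9 CPM in young and at 60.4, 41.9 and 68.6 CPM in aged hearts, and rose 2.20-fold (log2 fold change 1.14, standard error 0.239, 95% interval 0.56 to 1.71, unadjusted p = 0.00267 in edgeR), or 1.18 on the log2 scale without young animal 15. *Ddit4* (ENSRNOG00000057078, chr20:29509289-29511382, minus strand), also known as REDD1 and also induced by hypoxia and by glucocorticoids, was at 78.0, 82.9 and 89.5 CPM in young and at 36.0, 53.3 and 36.1 CPM in aged hearts. Every aged heart lay below every young heart, and young animal 15 was the highest of all. *Ddit4* fell by 1.00 on the log2 scale (standard error 0.212, 95% interval -1.51 to -0.49, unadjusted p = 0.00282 in edgeR), and by 0.91 without young animal 15. With libraries scaled by their totals alone, the log2 fold change of *Ddit4* was -0.57 (unadjusted p = 0.0895 in edgeR) and it was no longer past the limits. That scaling moved the median of all genes to 0.46.

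*Gdf15* and *Fgf21* encode hormones that stressed tissues secrete. *Gdf15* (ENSRNOG00000019661, chr16:20555395-20557978, plus strand) was read 29, 9 and 97 times in young and 444, 353 and 430 times in aged hearts, or 1.75, 0.572 and 4.01 CPM against 14.6, 13.4 and 16.5 CPM. The aged hearts lay close to each other and above every young heart, and young animal 15 was the highest of its group. The rise was 6.90-fold (log2 fold change 2.79, standard error 0.643, 95% interval 1.24 to 4.34, unadjusted p = 0.00425 in edgeR), and its log2 fold change was 3.7 without young animal 15. *Fgf21* (ENSRNOG00000020990, chr1:101595579-101596822, minus strand) was read only 8, 14 and 10 times in young and 11, 13 and 13 times in aged hearts. Its groups overlapped, and at this depth its log2 fold change of -0.38 (standard error 0.467, 95% interval -1.51 to 0.74, unadjusted p = 0.440 in edgeR) was not distinguishable from 0. Scaling by library totals alone gave 0.10, against a median of 0.46 over all genes. Leaving out young animal 13 gave 0.010 and young animal 15 -0.56.

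**Figure D2:**
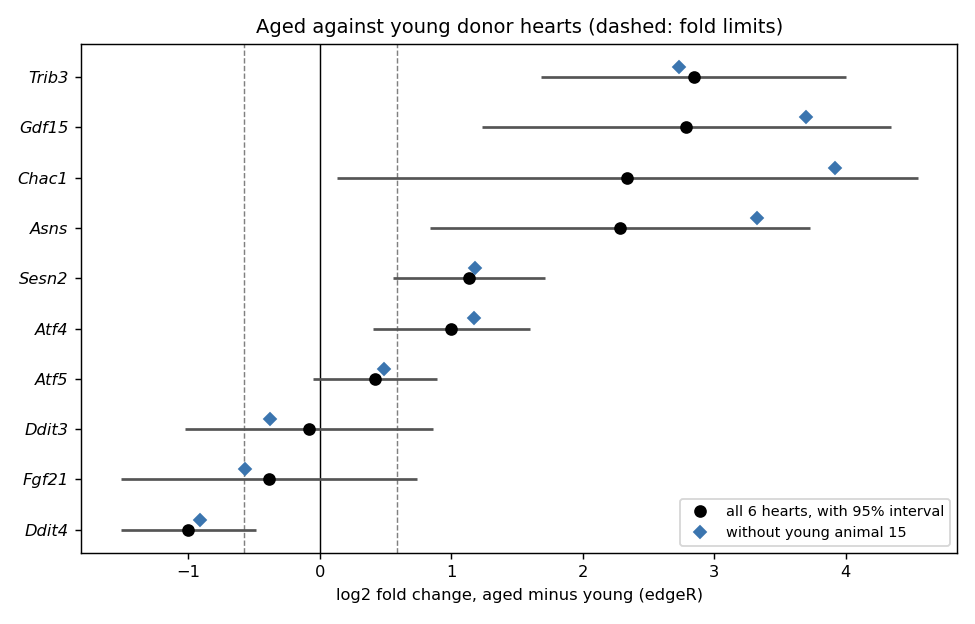
Log2 fold change of each gene, aged minus young (horizontal axis), with its 95% interval over all 6 hearts (black) and the value without young animal 15 (blue diamonds). The intervals of *Atf5*, *Ddit3* and *Fgf21* cross 0, and leaving out young animal 15 moves *Chac1* from 2.34 to 3.91 but *Trib3* only from 2.84 to 2.73.

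Young animal 15 did not take the same place in all of these genes. Its place was expressed as the percentage of the way from the mean of young animals 3 and 13 (0) to the mean of the aged hearts (100) on the log2 CPM scale, as a description with no test. Over all genes past the limits, the median place was 61.5%. Those genes were called with young animal 15 in the fit, so its place bore on which genes the median covers. On the first principal component its place was 66.5%. *Atf5*, *Ddit3* and *Fgf21*, not past the limits, are left out here. Young animal 15 was at 71.6% in *Chac1*, 60.5% in *Asns*, 50.5% in *Gdf15* and 32.9% in *Atf4*. By contrast it was at 1.68% in *Sesn2*, -15.8% in *Ddit4* and -19.9% in *Trib3*, and thus beside or beyond the other young hearts in these 3 genes.

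**Figure D3:**
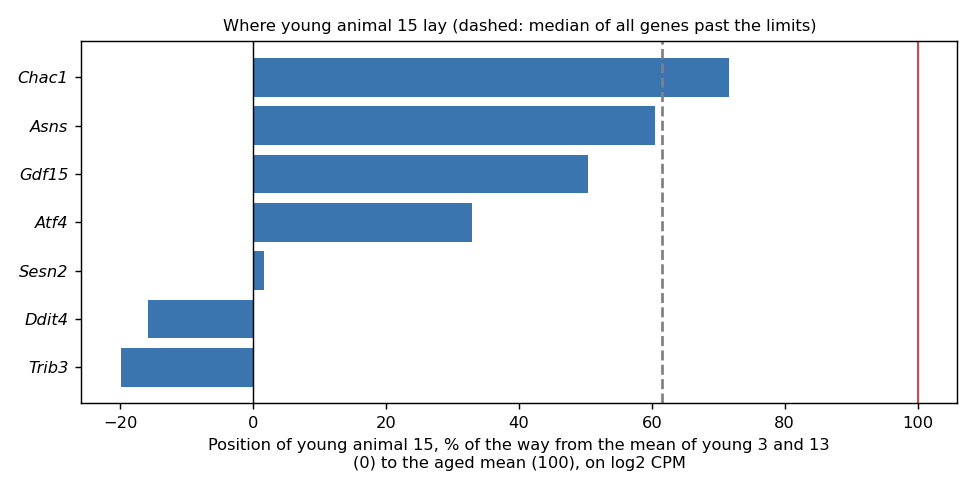
Place of young animal 15 in the 7 genes past the limits, in percent of the distance from the other young hearts to the aged mean (horizontal axis); the red line at 100 is the aged mean, and the dashed line at 61.5% is the median of all genes past the limits. *Trib3*, *Ddit4* and *Sesn2* lie near or below 0, and *Asns* and *Chac1* near or above the dashed line.

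Levels were compared between genes as deposited FPKM, which divides by gene length and by library total, with no TMM factor. Scaling by library totals alone moved the median log2 fold change of all genes to 0.46. These levels therefore serve to compare genes within a group, not the groups with each other. In aged donor hearts *Atf4* was the highest of the 10 at 211 ± 38.6 FPKM (SD, n = 3), followed by *Atf5* at 57.2 ± 10.5, *Ddit3* at 35.7 ± 6.37, *Ddit4* at 28.4 ± 5.78, *Gdf15* at 19.1 ± 2.26, *Sesn2* at 18.0 ± 4.66, *Asns* at 13.8 ± 2.63, *Trib3* at 8.60 ± 4.85, *Chac1* at 2.73 ± 1.39 and *Fgf21* at 0.841 ± 0.111 FPKM. *Atf4* stood well above the next gene in each aged heart. The ranges over the aged hearts overlapped between *Ddit3* and *Ddit4*, *Gdf15* and *Sesn2*, *Sesn2* and *Asns*, and *Asns* and *Trib3*. Within each aged heart, however, *Sesn2* was above *Asns*. In young donor hearts the order was *Atf4* at 79.4 ± 30.9 FPKM, *Ddit4* at 42.3 ± 12.4, *Atf5* at 31.6 ± 8.53, *Ddit3* at 25.9 ± 7.92, *Sesn2* at 5.97 ± 1.51, *Asns* at 2.32 ± 2.46, *Gdf15* at 2.24 ± 2.26, *Trib3* at 0.856 ± 0.0845, *Fgf21* at 0.784 ± 0.230 and *Chac1* at 0.451 ± 0.579 FPKM. The ranges over the young hearts were apart only between *Atf4* and *Ddit4* and between *Ddit3* and *Sesn2*, and those of the other neighbours overlapped. Within each young heart, however, *Ddit4* was above *Atf5* and *Sesn2* above *Asns*.

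The level of each gene relative to *Atf4* in the same heart does not depend on the scaling between hearts. *Trib3* was at 1.44, 1.33 and 0.748 FPKM per 100 FPKM of *Atf4* in young and at 3.86, 2.42 and 5.47 in aged hearts. The ratio to *Atf4* was likewise higher in every aged heart for *Gdf15* (2.41 ± 1.69 in young and 9.17 ± 1.24 in aged hearts) and for *Asns* (2.47 ± 1.76 and 6.70 ± 1.89, SD, n = 3 each). The groups did not overlap in these 3 ratios (exact permutation test, two-sided, p = 0.1 each). The share of all genes whose ratio to *Atf4* did not overlap was not computed. *Sesn2* kept nearly the same ratio to *Atf4*, 7.86 ± 1.92 in young and 8.56 ± 2.01 in aged hearts, with overlapping groups (exact permutation test, two-sided, p = 0.6). *Ddit4* went from 54.6 ± 5.96 to 13.9 ± 4.48 and *Atf5* from 40.9 ± 4.91 to 27.1 ± 0.357, in both without overlap. A ratio is lower for any gene that rises less than *Atf4*, which itself went from 79.4 ± 30.9 to 211 ± 38.6 FPKM. With TMM factors, *Atf4* went from 174 to 349 CPM. The FPKM of *Atf5*, scaled by library totals alone, was 57.2 ± 10.5 in aged and 31.6 ± 8.53 in young hearts. With TMM factors, *Atf5* was at 50.2 CPM in aged and 37.5 CPM in young hearts and was not past the limits. For *Ddit3* the ratio was 44.6, 54.6 and 14.7 in young animals 3, 13 and 15 and 17.7, 16.3 and 16.8 in the aged hearts, so that young animal 15 lay beside the aged hearts and apart from its own group. The ratio for *Chac1* overlapped between the groups (exact permutation test, two-sided, p = 0.2), and that for *Fgf21*, at 0.361 to 0.468 in aged and 0.624 to 1.80 in young hearts, rests on at most 14 reads per heart.

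**Figure D4:**
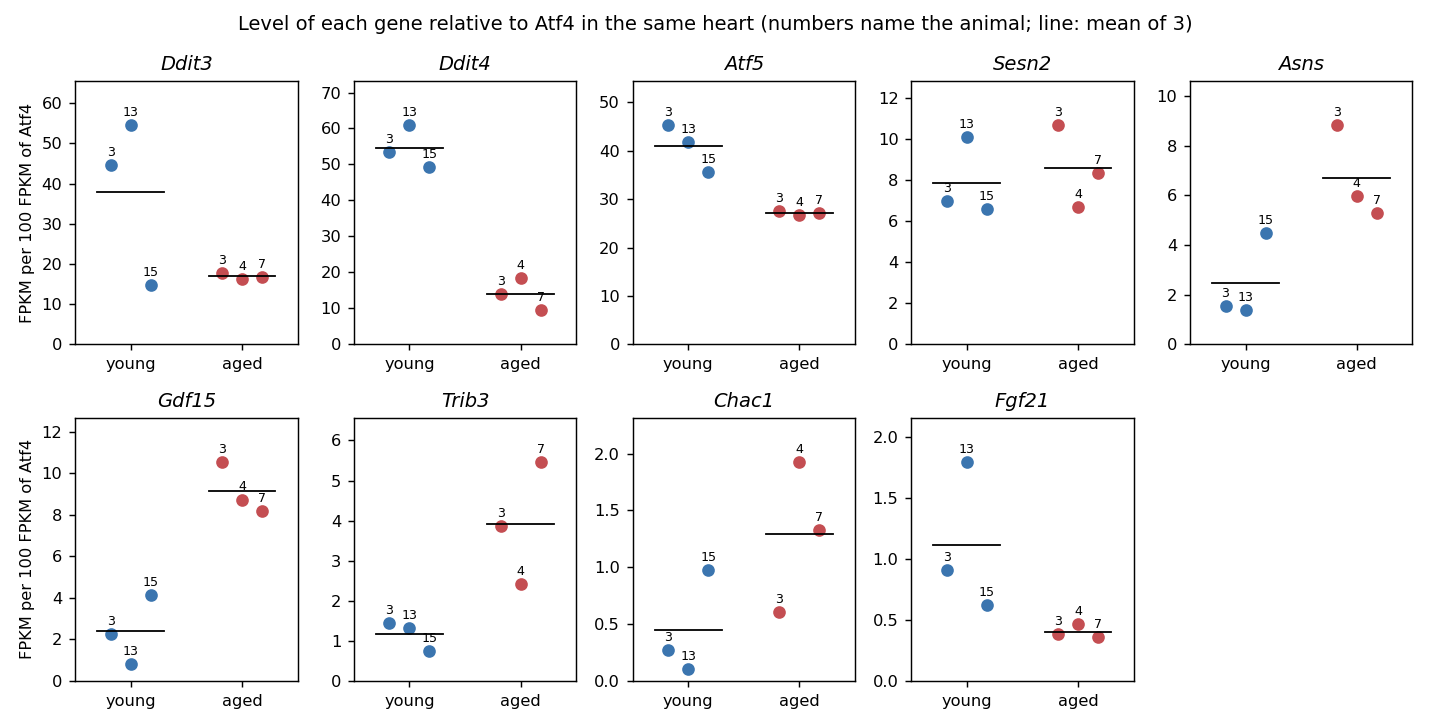
FPKM of each gene per 100 FPKM of *Atf4* in the same heart (vertical axis from 0, a different range in each panel) for young (blue) and aged (red) donor hearts, numbered by animal, with a line at each group's mean. The ratios of *Trib3*, *Asns* and *Gdf15* are higher and those of *Ddit4*, *Atf5* and *Fgf21* lower in every aged heart, and *Sesn2* overlaps.

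The wider pathway was described with 10 lists of 109 genes, of which 105 were in the table and 101 were tested. In these lists, 26 genes rose, 11 fell and 64 were not past the limits, with a median log2 fold change of 0.59. The counts of each list below are to be read against the 13.2% of all genes that rose and the 19.0% that fell; no test compared the lists with other genes or with each other. These counts depended on single hearts: the number that rose was 56 without young animal 15, 7 without young animal 3, 9 without young animal 13, 8 without aged animal 7 and 17 without aged animal 4, and the number that fell was 5 without aged animal 3, aged animal 4 or young animal 13 and 6 without young animal 3. The share of all genes that rose also differed between these fits. It was 26.9% without young animal 15, 5.83% without young animal 3, 6.13% without young animal 13, 8.79% without aged animal 7, 9.97% without aged animal 4 and 7.47% without aged animal 3, the fit in which 29 list genes rose. The share of all genes that fell was 24.2% without young animal 15, 11.5% without young animal 3 and 11.6% without young animal 13. That share was 14.7% without aged animal 3, 15.3% without aged animal 4 and 13.7% without aged animal 7. Counts given below for a fit that left out 1 heart are to be read against the shares of that fit. In the promoter windows of 89 of the listed genes, 18.5% of 92 windows held the CARE core, against 3.98% of all windows. The lists were chosen around the ATF4 pathway, with reported ATF4 targets among them. A share above that of all windows was therefore to be foreseen and is not a result about these hearts. The core was found in 17 genes, 7 of them tRNA synthetases (*Aars1*, *Cars1*, *Iars1*, *Mars1*, *Nars1*, *Tars1* and *Yars1*). Of these 7, *Iars1* was not past the limits. The others were *Eif2s2*, *Got1*, *Herpud1*, *Hspa9*, *Jdp2*, *Nupr1*, *Ppp1r15b*, *Pycr1*, *Slc1a4* and *Slc7a1*. Among them, *Jdp2*, *Ppp1r15b* and *Slc7a1* rose, *Got1* fell and the rest were not past the limits or not tested.

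Upstream of ATF4, the RNA of the 4 eIF2 kinases was not past the limits. The log2 fold change was -0.077 for *Eif2ak1* (HRI, the heme-regulated kinase) and -0.050 for *Eif2ak2* (PKR, which senses double-stranded RNA). It was -0.037 for *Eif2ak3* (PERK, the ER stress kinase) and 0.25 for *Eif2ak4* (GCN2, which senses uncharged tRNA). With libraries scaled by their totals alone, the first 3 were positive, from 0.35 to 0.43, but below the median of all genes (0.46). Of the 18 kinase, eIF2, eIF2B and phosphatase adaptor genes, 4 rose and 1 fell. *Ppp1r15a*, which encodes the stress-induced adaptor GADD34 that brings a phosphatase to eIF2, was at 71.4, 70.5 and 59.7 CPM in young and at 113, 118 and 153 CPM in aged hearts (log2 fold change 0.93, standard error 0.197, unadjusted p = 0.00286 in edgeR). It stayed past the limits in each of the 6 fits that left out 1 heart. Its constitutive relative *Ppp1r15b* rose by 0.72 on the log2 scale, *Dnajc3*, an ER co-chaperone that inhibits PERK, by 1.26 (1.85 without young animal 15), and *Eif2b3*, an eIF2B subunit, by 0.95, the last past the limits in 1 of those 6 fits. *Dele1*, which relays mitochondrial stress to HRI, was at 244, 245 and 65.8 CPM in young and at 41.7, 65.2 and 65.1 CPM in aged hearts (log2 fold change -1.69), with young animal 15 just above the aged range. The number that rose in this list was 7 without young animal 15, 1 without young animal 13, and 2 without young animal 3 or aged animal 7.

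Among the partner and related bZIP factors, 5 of 7 tested rose and 0 fell: *Jdp2* by 1.41 (1.93 without young animal 15), *Cebpb* by 1.26 (1.78), *Cebpg*, a partner of ATF4, by 0.94, *Atf6* by 0.87 and *Xbp1* by 0.83 on the log2 scale. *Atf3*, a target of ATF4, was at 2.66, 4.32 and 48.3 CPM in young and at 67, 78.8 and 69.2 CPM in aged hearts. Its groups did not overlap, but young animal 15 lay near the aged hearts, and the log2 fold change of 1.95 had a standard error of 1.05 (unadjusted p = 0.111 in edgeR). It was 4.40 without young animal 15. The number that rose in this list went down to 2 without young animal 3.

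Genes of amino acid supply were read in 3 lists. Of the 18 cytosolic tRNA synthetases, which load tRNA with amino acids, 8 rose and 0 fell, with a median log2 fold change of 0.63. The 4 largest were *Yars* (1.12), *Cars* (1.05), *Nars* (1.03) and *Tars* (0.98), and of these *Yars* was past the limits in 6 of the 6 fits that left out 1 heart and the other 3 in 2 each. The number that rose was 14 without young animal 15 and 1 or 2 without any one of young animals 3 and 13 and aged animals 4 and 7. Of the 8 amino acid transporters tested, 4 rose and 0 fell. *Slc7a11*, the cystine carrier, had a log2 fold change of 3.67 (5.79 without young animal 15 and 2.72 without aged animal 7, its highest heart, and past the limits in 5 of the 6 fits that left out 1 heart), on 0.0605, 0.191 and 1.28 CPM in young and 4.07, 3.0 and 13.8 CPM in aged hearts. *Slc1a5*, a glutamine carrier, rose by 2.28 (3.88 without young animal 15), *Slc3a2*, the heavy chain that partners *Slc7a11*, by 1.39 (1.93 without young animal 15), and *Slc7a1*, an arginine and lysine carrier, by 1.33 (2.11 without young animal 15). *Slc1a5* was past the limits in 1 and *Slc7a1* in 2 of the 6 fits that left out 1 heart. Without young animal 15, 6 transporters rose, without aged animal 7, 1 did, and without young animal 3 or 13, 2 did. With all 6 hearts, 0 of 11 enzymes of amino acid and one-carbon synthesis rose and 1 fell, *Got1* (log2 fold change -2.69), a cytosolic aspartate aminotransferase that is abundant in the heart. The median of these 11 genes was 0.86, and 9 of them rose without young animal 15. Its levels of *Psat1* (13.1 CPM) and *Mthfd2* (38.8 CPM), for example, lay nearer to the aged hearts (14.8 to 16.5 and 36.6 to 60.1 CPM) than to the other young hearts (2.06 to 3.18 and 4.96 to 7.56 CPM).

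Related stress branches were read for comparison. Of 12 ER chaperone and folding genes of the ATF6 and XBP1 branches, 3 rose, *Sdf2l1* by 1.73 (2.66 without young animal 15), *Edem1* by 0.98 and *Manf* by 0.82, and 0 fell. *Hspa5*, which encodes the chaperone BiP, was at 591, 517 and 1101 CPM in young and at 948, 1412 and 2026 CPM in aged hearts, and young animal 15 lay within the aged range (log2 fold change 0.99, standard error 0.462, unadjusted p = 0.0734 in edgeR). The number that rose was 10 without young animal 15, 1 without young animal 13, and 0 without young animal 3, aged animal 4 or aged animal 7. Of 8 mitochondrial chaperones and proteases, 0 rose and 2 fell, *Clpx* by 2.01 and *Afg3l2* by 1.08, a count near the share of all genes, and 5 fell without young animal 15 but 1 without young animal 3 or 13 or aged animal 3 or 4. Among 9 other reported targets of ATF4 or CHOP, 4 fell and 1 rose. Those lower were *Vegfa*, an angiogenic growth factor (log2 fold change -2.61), *Stc2* (-1.74), *Vldlr*, a lipoprotein receptor (-1.68), and *Bcl2l11*, which encodes the apoptosis activator BIM (-0.66), and the one that rose was *Ero1a*, an ER oxidase (0.74). In *Vegfa* (166 CPM) and *Stc2* (6.15 CPM), young animal 15 lay within the aged ranges, 55.5 to 229 and 3.78 to 9.85 CPM. Of the 6 fits that left out 1 heart, *Vldlr* was past the limits in 6 and *Vegfa* in 3. *Stc2*, *Bcl2l11* and *Ero1a* were past them in 2 each. The number that fell went down to 1 without aged animal 4 or young animal 13 and to 2 without aged animal 3 or young animal 3.

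Of 8 close relatives of the 10 genes, 1 rose and 2 fell, counts near the shares of all genes. *Sesn1*, sestrin 1, was at 240, 240 and 43.7 CPM in young and at 21.5, 34.2 and 21 CPM in aged hearts. The change was -2.77 on the log2 scale (standard error 0.660, unadjusted p = 0.00495 in edgeR), opposite in direction to *Sesn2*. *Trib1* rose by 0.79, past the limits in 1 of the 6 fits that left out 1 heart, and *Trib2* fell by 0.76 on the log2 scale, past them in 2. The remaining 5 relatives tested were not past the limits. Of the receptors of the 2 hormones, *Fgfr1* was not past the limits (log2 fold change 0.26), *Gfral*, the GDF15 receptor, had 2 reads over all 6 hearts, and *Ret*, its co-receptor, fell by 2.37, past the limits in 1 of the 6 fits that left out 1 heart, that without young animal 15.

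**Figure D5:**
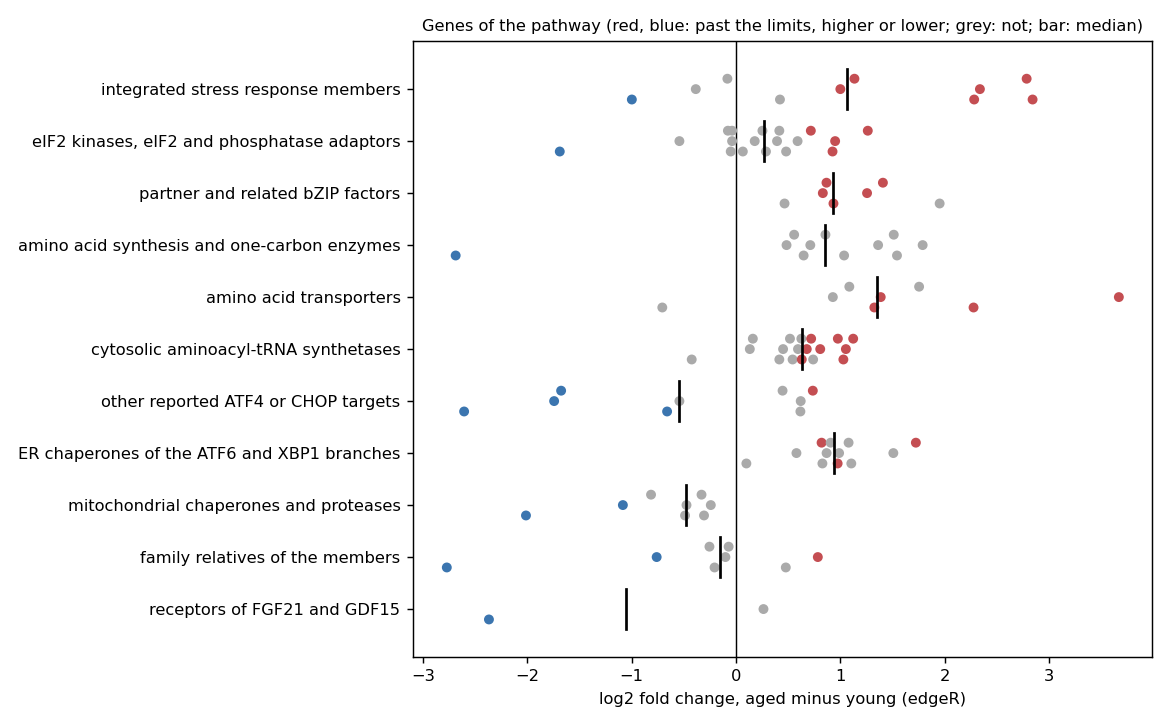
Log2 fold change, aged minus young (horizontal axis), of every tested gene in the 10 genes and the 10 pathway lists, one point per gene, with a bar at each list's median. Red points rose and blue points fell past the limits. The tRNA synthetases and transporters lie mostly to the right of 0, the mitochondrial chaperones and proteases to the left.

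Likeness was measured as Pearson's r with the mean centred log2 CPM of *Atf4*, *Ddit3*, *Trib3*, *Chac1* and *Asns* over the 6 hearts. Among genes of at least 1 CPM outside the lists, the 5 most alike were *Has1* (r = 0.992), *Zfyve27* (0.991), *Fam83h* (0.991), *Fbxo7* (0.991) and *Daxx* (0.990). *Has1*, a hyaluronan synthase, ran from 3.18 CPM in young animal 13 to 25.5 CPM in aged animal 7. The log2 fold changes of *Zfyve27* (0.46), *Fbxo7* (0.32) and *Daxx* (0.42) were not past the limits. All of these values come from the same 6 libraries, and this is a description with no test. These r were picked as the largest among all genes compared, and the spread of r over the other genes is not given. Among the 10 genes themselves, *Atf4* had r of 0.92 with *Trib3*, 0.91 with *Chac1*, 0.92 with *Asns* and 0.94 with *Gdf15* over the same hearts. It had r of 0.92 with *Atf5*, 0.89 with *Sesn2*, -0.87 with *Ddit4*, -0.46 with *Fgf21* and -0.10 with *Ddit3*. All r here pool young and aged hearts, so they also carry the difference between the groups.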

How the data were processed

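RNA-Seq of polyadenylated RNA was done by the authors in 6 donor hearts. The deposited table holds unnormalized read counts by gene and heart, and FPKM values, which the authors made by dividing the count by gene length and library total (equal within 0.1% in all but 1 of 133500 values). The submitters' processing notes list HISAT2 2.0.5, StringTie 1.3.3b, featureCounts 1.5.0-p3, DESeq2 1.16.1, GATK 3.7 and the build Rnor_6.0, without roles or order. All per-heart columns belonged to the 6 hearts, and 0 rows lacked a gene name.

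In R 4.3.3, edgeR 4.0.16 was used (filterByExpr, TMM, glmQLFit and glmQLFTest, no covariates), with limma 3.58.1 and DESeq2 1.42.0 as alternatives and Python 3.11.15 for summaries. Other alternatives were scaling by library totals or DESeq2 size factors, other filters on low counts, removal of mitochondrial genome genes, adjusted p-value limits and leaving out each heart. Standard errors were obtained by dividing the log2 fold change by the root of F, and 95% intervals use the test's degrees of freedom. Log2 CPM used a prior count of 2. A signal needed 3 reads, or 0.0985 to 0.191 CPM. Adjusted p-values are Benjamini-Hochberg values over all genes tested. P-values set the difference between the groups against the spread between these hearts. The edgeR fit alone was tested on simulated counts, with the same dispersion for every gene and no outlying heart, unlike these data. The 10 genes and all lists were chosen with earlier results of these data known. Up to 4 genes per direction past the limits with the largest change were named from each list. The 4 eIF2 kinases, *Ppp1r15a*, *Atf3* and *Hspa5* were named whatever their values. *Xbp1*, *Fgfr1*, *Gfral* and the listed genes with a promoter match were named after their values were seen. So were *Psat1*, *Mthfd2*, *Mars1* and the single cell type markers. *Slc7a11* and *Slc3a2* were already known to be higher. Promoter sequences are from RefSeq (GRCr8), and coordinates of genes from the table. Some listed genes that matched no gene name in the table (*Cth*, *Bbc3*, *Ddit4l*, *Klb* and the markers *Ttn*, *Col1a2* and *Pecam1*) were not analysed here.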

Additional observations from a re-analysis of the deposited data

How the results depend on the processing

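The 6 genes past the limits and higher and the 1 lower were counted under 15 other settings. With each of the hearts left out in turn, the higher genes numbered 5 to 6 and the lower 1. Scaling by library totals alone gave 7 higher and 0 lower genes of the 10. In the pathway lists it gave 41 higher and 7 lower genes in place of 26 and 11. Over all genes it gave 3147 higher and 1441 lower in place of 1815 and 2621. Under that scaling the log2 fold change was 0.86 for *Atf5* (then past the limits), -0.57 for *Ddit4* (no longer past them), 0.46 for *Ddit3* and 0.10 for *Fgf21*. The median of all genes was then 0.46. Limma-voom gave 59 higher and 17 lower list genes, 3689 higher genes in all, and 0.51 for *Atf5*. A Benjamini-Hochberg adjusted p-value under 0.05 in edgeR left 0 genes in either direction in the 10 genes, in the lists and over all genes, and one under 0.1 left 12 higher and 5 lower list genes and 894 higher and 1678 lower genes. With each heart left out in turn, list genes numbered 7 to 56 higher and 5 to 16 lower, and all genes 817 to 3802 higher and 1615 to 3412 lower. The log2 fold change ran from 0.26 to 0.53 for *Atf5*, from 1.88 to 3.91 for *Chac1*, from -0.38 to 0.19 for *Ddit3* (0.010 without aged animal 3, 0.19 without young animal 13 and 0.050 without young animal 3) and from -0.56 to 0.010 for *Fgf21* (0.010 without young animal 13). Of 128 single-gene refits, 114 kept their direction and their side of the p-value limit, 5 fell short of it, 3 passed it and 6 changed sign. The stricter filter, at least 50 reads in 3 hearts, dropped *Chac1* and *Fgf21*. The cause of these differences was not tested. No paired analysis was possible because the groups share only the number 3 in their labels, which names different hearts.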
